A study of Cucumis x hytivus and Cucumis hystrix and Cucumis sativus with 8 samples.

Results

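Small RNAs of mature leaves were compared between a synthetic allotetraploid and the level halfway between its parents, the mid-parent value. The comparison used 6 of the 8 libraries of the series, namely 2 of the allotetraploid Cucumis × hytivus, 2 of the wild diploid C. hystrix and 2 of the diploid cucumber C. sativus, cultivar 'BeijingJietou'. They were chosen by the labels as mature leaf, the first leaf to be fully developed, and the 2 libraries from young allotetraploid leaves, the first leaf from the top, entered only the estimate of the spread. The allotetraploid carries the genomes of both parents and was in its selfed generation 10, and all plants were grown in climate chambers at 25 °C by day and 20 °C by night with 14 h of light. No library of a freshly made hybrid or of an artificial mix of parental RNA was used here, so the mid-parent was computed from the parental libraries. Nothing in the labels says that the 2 libraries of a group came from separate plants, and the tests then measure only the spread between these libraries, which may be technical.

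Plant microRNAs are short RNAs, mostly of 21 nt, that guide an Argonaute protein to messenger RNAs with a nearly complementary site, and many of their targets are transcription factors. In leaves the conserved families set the juvenile or adult character of the shoot, leaf polarity and margins, the response to auxin, and the supply of copper, sulfate and phosphate. Roles named below were worked out mainly in Arabidopsis thaliana. An allopolyploid inherits the microRNA genes of both parents, and an additive gene is read at the mid-parent level. Additivity can be written as the arithmetic mean of the parents, here the linear mid-parent, or as the geometric mean, here the log mid-parent. Both were used, because they part where the parents differ: at equal parental levels they coincide, and the linear mid-parent is always the higher.

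The table listed 733 mature sequences, here called entries, of which 446 carry a family number (128 families) and 287, named PC and a number, are candidates predicted by the authors. Where a name stands for several sequences they are numbered here as v1, v2 and so on. The 6 libraries held 177757 to 919243 listed reads, or 99196 to 378234 with each sequence taken once, and 317 to 487 entries were read at least once. The second C. sativus library was the shallowest and stood apart. Families known as fragments of ribosomal or transfer RNA, or questioned as microRNAs, took 58.0% of its reads against 11.1% to 17.4% in the other 5, and miR159 took 6.47% against 18.3% to 46.6%. Its scaling factor for entries (trimmed mean of M values, TMM) was 2.00, against 0.762 to 1.25 in the other 5. For reads summed by family, which were scaled on their own, it was 1.38, against 0.694 to 1.31. Every value that rests on the C. sativus mean carries this, and the part of this library in each result was not tested except by leaving it out.

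Shown here are the mature sequences on which the results turn, 5′ to 3′ as DNA letters, with the seed (bases 2 to 8) in capitals. The first 8 had, under TMM scaling, both allotetraploid libraries above, or both below, all 4 parental libraries. PC-169-5p lay on different sides of the 2 mid-parents. The others were among the most abundant or the farthest from the mid-parent, except miR319a, a member of the miR319 sum, which is set beside its relative miR159a v1.
miR156b v1: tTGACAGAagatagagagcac
miR156a v2: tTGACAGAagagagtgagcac
miR164a v1: tGGAGAAGcagggcacgtgct
miR164b-3p: cATGTGCCcctcttctccatc
miR171u-p5: tGTTGGAAcagttcaatc
miR171c-p3: tTGAGCCGtgccaatattt
PC-131-3p: aTTTAAGAtttgcagtatgaactt
PC-20-3p: aATGTAGTtgtattcttaattatt
PC-169-5p: tCGGGAATagccacacaactc
miR156f: tGACAGAAgatagagagcact
miR166a v1: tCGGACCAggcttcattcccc
miR166a v2: gCGGACCAggcttcattcccc
miR166g: tCTCGGACcaggcttcattcc
miR166i-p3: tCTCGGACcaggcttcattc
miR166m: gCTGACCAggcttcattcccc
miR159a v1: tTTGGATTgaagggagctct
miR319a: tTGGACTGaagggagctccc
miR393a v1: tCCAAAGGgatcgcattgatc
miR393c: tCCAAAGGgatcgcattgattt
miR169g: aAGCCAAGgatgaattgccgg
The miR156b and miR156a variants share 1 seed, as do both miR166a variants, miR166g with miR166i-p3, and miR393a with miR393c. On the genome that the authors used, whose build no source used here gives, the table places the hairpin of miR156b v1 on the plus strand of chromosome 1 from 2522424 to 2522602, that of miR171u-p5 on the minus strand of chromosome 1 from 241165 to 241252, that of PC-169-5p on the minus strand of chromosome 7 from 8370983 to 8371159 and that of PC-131-3p on the plus strand of chromosome 4 from 8688831 to 8689071. Whether these loci lie in genes is not stated, since no annotation was used here.

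Mature leaves of the allotetraploid held no entry at a level that could be told from the mid-parent. Of 733 entries 208 had enough reads to be tested, and 0 passed the threshold (adjusted p under 0.05; background share called 0%) against the log mid-parent by the quasi-likelihood test of edgeR, Benjamini-Hochberg adjusted over all 208, where 3 had an unadjusted p under 0.05 and the smallest adjusted p was 0.521. Against the linear mid-parent 0 passed as well (background share called 0%), 1 had an unadjusted p under 0.05, and the smallest adjusted p was 0.987. DESeq2 called 0 entries, with 7 at an unadjusted p under 0.05, and limma's voom called 0, with 6, both on the log scale. Leaving out 1 library at a time left both counts at 0 except without the first C. sativus library, where 20 entries passed on the log scale (19 above and 1 below the mid-parent) and 1 on the linear scale, against a C. sativus level that then rests on the second library alone. The median difference over the 208 entries, as log2 of the allotetraploid level over the mid-parent, was 0.14 on the log scale (quartiles −0.49 and 0.73) and 0.01 on the linear scale (quartiles −0.65 and 0.61). The median standard error (SE) of an entry was 1.07 on the log scale, so differences of 2-fold in single entries lay within the error. This says that departures from the mid-parent were not detectable at this depth and with 2 libraries a group, not that there were none.

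Single entries scattered on both sides. The difference lay within 1 log2 unit of 0 for 150 of the 208 entries (72.1%) on the log scale and for 151 (72.6%) on the linear scale, and it passed 2 log2 units for 11 and 9. On the log scale 117 of the 208 (56.2%) lay above the mid-parent, and on the linear scale 106 (51%), which is the background for the counts of lists below. By means, 77 entries (37%) lay between the parents, 76 (36.5%) above both and 55 (26.4%) below both. With libraries scaled to the conserved families alone the number above both was 42, and without the first C. sativus library the number below both was 35. The median of all entries on the log scale moved from 0.14 to −0.04 with DESeq2's size factors, to −0.06 with the authors' constants, to −0.10 with plain library totals and to −0.32 with scaling to the conserved families. A difference from the mid-parent is best read beside the median of all entries under the same scaling, and a shift of all entries together cannot be read from these libraries.

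Family sums, in which the reads of all sequences with 1 family number are added and candidates without a number stay single, gave the same counts. They were TMM-scaled on their own, so the CPM of a sum can lie under that of 1 of its entries. Of 86 family-level features tested, 0 passed against the log mid-parent (background share called 0%; 2 at an unadjusted p under 0.05; smallest adjusted p 0.0709) and 0 against the linear one (background share called 0%; 1 at an unadjusted p under 0.05; smallest adjusted p 0.965) by the quasi-likelihood test of edgeR. On the log scale DESeq2 called 1, PC-169-5p, with 3 at an unadjusted p under 0.05, and limma's voom 0, with 2. Without the first C. sativus library 6 passed on the log scale (miR159, miR319, miR8155, PC-131-3p and PC-169-5p above, miR393 below) and 1, miR393, on the linear scale. Without the second 1 passed, PC-169-5p, and without the first C. hystrix library 1, miR827, which the second C. hystrix library did not read. By means 30 features lay above both parents, 34 between and 22 below both; the first number was 14 with scaling to the conserved families, and the last was 38 without the second allotetraploid library and 14 without the first C. hystrix library.

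**Figure D1:**
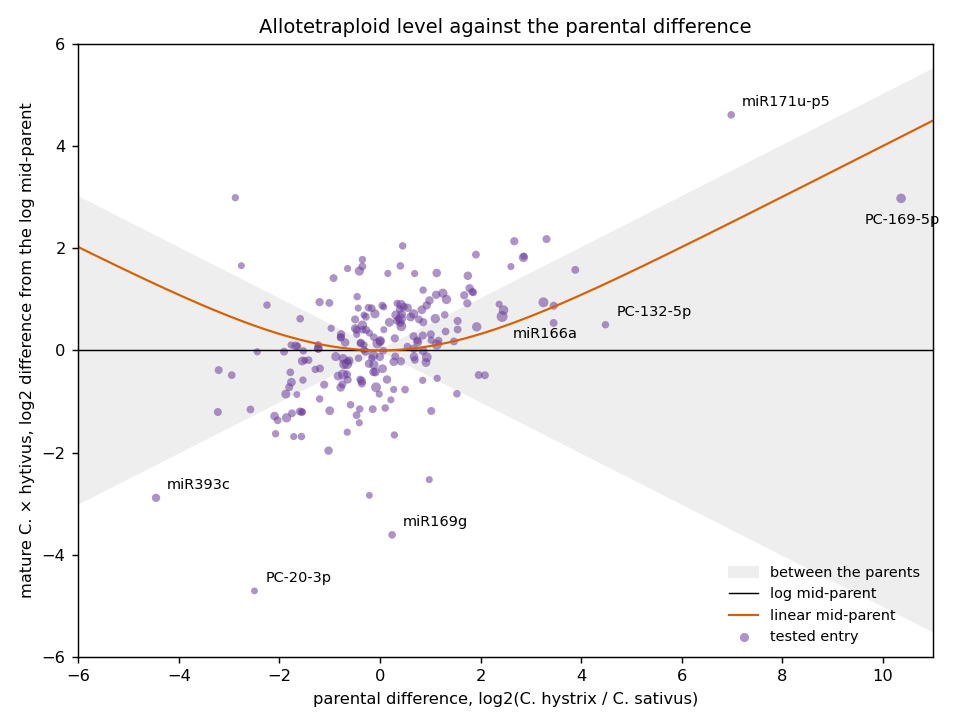
Each point is 1 of the 208 tested entries. The x axis gives the fitted log2 ratio of C. hystrix to C. sativus, and the y axis the log2 difference of the mature allotetraploid from the log mid-parent. The grey wedge marks levels between both parents, the black line the log mid-parent and the orange curve the linear mid-parent. Both axes hold the parental values. Most points lie within 1 log2 unit of the black line, miR171u-p5 lies above the wedge, PC-169-5p lies between the black line and the orange curve, and miR393c, miR169g and PC-20-3p lie below. The places of miR171u-p5 and PC-20-3p, each with a group at 0 reads, depend on the small count the fit adds.

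Under TMM scaling both allotetraploid libraries stood above all 4 parental libraries for 6 entries, 4 of them of miR156 and miR164. Of all 208 tested entries, 13 belonged to miR156 and 4 to miR164. These 6 entries made up 2.88% of those tested, and they are named for this position after their values were seen. The position was read with TMM factors of 1.08 and 0.762 in the allotetraploid and 1.25 in the first C. sativus library. With plain library totals the second allotetraploid library lies under the first C. sativus library for miR156b v1 and miR156a v2. For miR164a v1 it lies under the first C. hystrix library. miR156 keeps the shoot juvenile by holding down SPL transcription factors and falls as the plant ages, and miR164 limits NAC factors of the CUP-SHAPED COTYLEDON group, which shape leaf margins. Nothing here passed the test, so the values below are a description.

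miR156b v1 was read at 10077 and 9830 CPM (reads as a rate of the TMM-scaled library total) in the allotetraploid, 8896 and 3478 CPM in C. hystrix, and 7994 and 1265 CPM in C. sativus. The second library of each parent lay far below the first, while the allotetraploid pair stood close together. The difference was 0.89 (SE 0.90) from the log and 0.88 from the linear mid-parent. miR156a v2 gave 5043 and 4887 CPM in the allotetraploid, 4765 and 4680 CPM in C. hystrix, and 3999 and 405 CPM in C. sativus. Its lead over C. hystrix was small, and only the second C. sativus library was far lower. The differences were 0.62 (SE 0.95) and 0.52.

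Among the other miR156 members, miR156f stood at 314 and 508 CPM in the allotetraploid, 368 and 100 CPM in C. hystrix, and 70.7 and 0 CPM in C. sativus. It overlapped with C. hystrix and lay above C. sativus, and its difference was 2.14 (SE 1.11) from the log and 1.59 from the linear mid-parent, with adjusted p = 0.993 and 0.987 (edgeR). On the log scale it was 1.66 without the second C. sativus library and passed the threshold without the first (5.30, adjusted p = 0.0166, edgeR), where only an unread C. sativus library is left and the fitted value is no measured fold. The sum over the family was 15855 and 21808 CPM in the allotetraploid, 17151 and 8086 CPM in C. hystrix, and 17509 and 3419 CPM in C. sativus. The lower allotetraploid library lay under the higher library of each parent, so the groups overlapped. The family sum differed by 0.71 (SE 0.89) from both mid-parents, and the sign held under every setting tried, from 0.34 without the second C. sativus library to 1.28 without the first on the log scale.

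The juvenile/adult list of miR156, miR157 and miR172 had 19 tested entries, 13 of miR156 and 6 of miR172, and miR157 had no tested entry. Of the 19, 16 (84.2%) were above the log mid-parent, against 56.2% of all 208, with a median of 0.71 against 0.14. Above the linear mid-parent were 14 of 19 (73.7%), against 51% of all, with a median of 0.54 against 0.01. No entry of the list passed the test, and whether the list differs from other entries was not tested. Without the second C. sativus library 13 of 19 were above the log mid-parent (median 0.41, all entries 58.2% and 0.14), and with scaling to the conserved families 13 of 19 (median 0.43, all entries 36.5% and −0.32). In the 19 entries together, the 6 libraries gave 20034 and 20944 CPM in the allotetraploid, 19231 and 11760 CPM in C. hystrix, and 17301 and 2551 CPM in C. sativus. The second C. sativus library was by far the lowest. miR172, which limits AP2-like factors and rises as a plant leaves the juvenile phase, had a family sum of 712 and 1267 CPM in the allotetraploid, 975 and 778 CPM in C. hystrix, and 899 and 365 CPM in C. sativus. These groups overlapped, and the difference of 0.41 (SE 0.70) from the log mid-parent turned to −0.07 without the second allotetraploid library and to −0.04 when libraries were scaled to the conserved families. Within miR172, miR172c-p5 (116 and 313 CPM in the allotetraploid, 95.7 and 23.6 CPM in C. hystrix, 128 and 25.3 CPM in C. sativus) lay at 1.64 and miR172b-p5 (49.3 and 27.8 CPM, 110 and 47.2 CPM, 192 and 25.3 CPM in the same order) at −1.27, both overlapping with a parent.

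**Figure D2:**
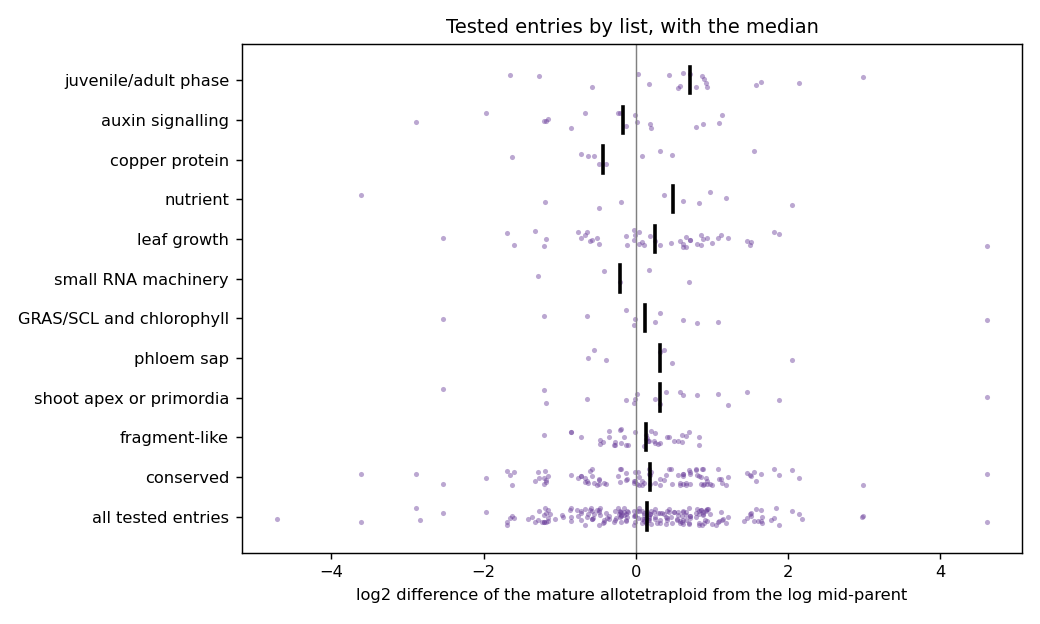
Each row is a list of families, each point a tested entry of it, and the black bar the list's median. The x axis gives the log2 difference of the mature allotetraploid from the log mid-parent. The juvenile/adult list has the highest median (0.71) and the copper protein list the lowest (−0.44), and the points of every list spread across 0.

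As TMM-scaled, the miR164 sum lay above all 4 parental libraries. It was 1656 and 1389 CPM in the allotetraploid, 1305 and 813 CPM in C. hystrix, and 661 and 226 CPM in C. sativus. On this scale the 3 groups did not overlap, and the allotetraploid stood above C. hystrix, which stood above C. sativus. The TMM factors of the sums were 1.31 and 0.694 in the allotetraploid and 0.864 in the first C. hystrix library. With these factors undone, the second allotetraploid library lies under the first C. hystrix library, and both groups overlap. The difference was 1.15 (SE 0.75) from the log and 1.02 from the linear mid-parent, with adjusted p = 0.957 and 0.965 (edgeR), and it stayed positive under every setting tried (0.86 to 1.46 on the log scale as single libraries were left out).

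Of the 4 tested miR164 entries, miR164a v1 and miR164b-3p were in this order. The others did not have both allotetraploid libraries above all 4 parental libraries. miR164a v1 had 949 and 640 CPM in the allotetraploid, 620 and 436 CPM in C. hystrix, and 296 and 15.2 CPM in C. sativus. miR164b-3p, from the opposite arm, had 188 and 167 CPM, 110 and 76.6 CPM, and 47.1 and 0 CPM in the same order. In both, the allotetraploid pair was the highest and the second C. sativus library the lowest, and the differences from the log mid-parent were 1.46 (SE 0.96) and 1.87 (SE 1.09). For miR164b-3p the latter was 1.41 without the second C. sativus library and passed the threshold without the first (4.75, adjusted p = 0.0166, edgeR), again with only an unread C. sativus library left.

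miR160, which restrains auxin response factors, and miR395, which acts in sulfate uptake and assimilation, also had family sums above all parental libraries, at low levels. For miR160 the 2 allotetraploid libraries gave 122 and 91.6 CPM, against 66.6 and 57.5 CPM in C. hystrix and 49.8 and 7.31 CPM in C. sativus. For miR395 they gave 133 and 57.2 CPM, against 49.9 and 0 CPM and 42.7 and 14.6 CPM. The differences of 1.29 (SE 1.32) and 1.77 (SE 1.47) from the log mid-parent were close to their SE, and their sign held under the scalings and left-out libraries tried. As single libraries were left out, that of miR160 ran from 0.935 to 2.12. That of miR395 ran from 1.05 without the first allotetraploid library to 4.68 without the first C. hystrix library, where only an unread C. hystrix library is left. With PC-131-3p and miR164 these made 4 of 86 family-level features above all parental libraries (4.65%), against 1 below all of them (1.16%). These counts hold for TMM-scaled values and carry no test. With the TMM factors undone, miR164 and miR395 lose the position, for miR395 because the second allotetraploid library lies under the first C. sativus library.

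miR171u-p5, an 18-nt sequence that the authors list for the 5′ arm of a miR171 hairpin, was read in C. hystrix and the allotetraploid and not in C. sativus. The miR171 family targets GRAS factors of the HAIRY MERISTEM group. miR171u-p5 was read at 139 and 111 CPM in the allotetraploid (31 and 32 reads), 39.0 and 76.6 CPM in C. hystrix (11 and 13 reads) and 0 and 0 CPM in C. sativus. All 3 groups were apart, with the allotetraploid highest and C. sativus unread. With a floor of 3 counts over both C. sativus libraries, the allotetraploid mean stood 6.68-fold above the log mid-parent and 3.92-fold above the linear one. The latter was 4.33-fold with C. sativus at 0. The floor covers counting error in C. sativus alone, and the error of the other means is left out. The fitted log2 difference from the linear mid-parent was 2.11, and 1.62 without the first C. hystrix library. The adjusted p was 0.521 against the log mid-parent and 0.987 against the linear one, both by the model fitted over all entries (edgeR). Another member of the family was not in this order. miR171c had 658 and 779 CPM in the allotetraploid, 1215 and 766 CPM in C. hystrix, and 1181 and 55.7 CPM in C. sativus, a difference of −0.13 from the log mid-parent with overlapping groups. The miR171 sum differed by 0.10 from both mid-parents and changed sign with the scaling, to −0.23 on the log scale with scaling to the conserved families.

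PC-131-3p, a predicted 24-nt candidate with no known role, had 251 and 271 CPM in the allotetraploid, 163 and 200.4 CPM in C. hystrix, and 33.7 and 0 CPM in C. sativus. The allotetraploid pair lay above C. hystrix and far above C. sativus. Its difference was 2.18 (SE 1.01) from the log mid-parent and 1.39 (SE 1.08) from the linear one. On the log scale it was 1.73 without the second C. sativus library, and without the first it passed the threshold (4.84, adjusted p = 0.0152, edgeR), with only an unread C. sativus library left.

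PC-169-5p, the predicted candidate with the widest parental contrast, lay on different sides of the 2 mid-parents. It was read at 3865 and 3649 CPM in the allotetraploid, 10880 and 23784 CPM in C. hystrix, and 23.6 and 0 CPM in C. sativus. The allotetraploid lay between the parents, well under C. hystrix and well above C. sativus, in every library. It stood 2.98 (SE 0.97, 95% interval 0.93 to 5.03) above the log mid-parent and at −1.21 (SE 1.07, interval −3.46 to 1.04) under the linear one. Adjusted p was 0.521 on the log scale as an entry and 0.0709 as a family-level feature, the smallest of all 86 (edgeR). It passed the threshold on the log scale among family-level features in DESeq2, and without either C. sativus library (without the first, where only an unread library is left, the fitted value is no measured fold). On the linear scale it passed under no setting.

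Both allotetraploid libraries lay below all 4 parental libraries for 2 entries (0.962%), again named for this after their values were seen. miR171c-p3 had 0 and 6.96 CPM in the allotetraploid, 42.5 and 23.6 CPM in C. hystrix, and 13.5 and 20.2 CPM in C. sativus. PC-20-3p had 0 reads in the allotetraploid, 3.54 and 5.89 CPM in C. hystrix, and 30.3 and 25.3 CPM in C. sativus. With the floor of 3 counts over both allotetraploid libraries, it stood 1.95-fold under the log and 2.77-fold under the linear mid-parent. The error of the parental means is left out of these folds. These levels amounted to 0 to 14 reads a group for PC-20-3p, near the limit of detection.

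miR393, which targets the auxin receptors TIR1 and AFB, was the lowest of the conserved family sums against the linear mid-parent. Its sum was 324 and 817 CPM in the allotetraploid, 712 and 637 CPM in C. hystrix, and 1450 and 4595 CPM in C. sativus. The allotetraploid overlapped with C. hystrix and lay below C. sativus. The difference was −1.32 (SE 0.76) from the log and −1.69 from the linear mid-parent, with adjusted p = 0.957 and 0.965 (edgeR). It was the only family sum with an unadjusted p under 0.05 on the linear scale. Without the second C. sativus library it was −0.79 and −0.90, and without the first −1.94 (adjusted p = 0.0145) and −2.72 (adjusted p = 0.0113), both past the threshold.

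Of the single miR393 entries, miR393c had 8.96 and 38.3 CPM in the allotetraploid, 24.8 and 53.1 CPM in C. hystrix, and 20.2 and 1680 CPM in C. sativus. The second C. sativus library alone was high, and the other 5 overlapped. Its difference was −2.89 (SE 1.27) from the log and −4.18 (SE 1.39) from the linear mid-parent. It was the only entry with an unadjusted p under 0.05 on the linear scale, and its adjusted p there was 0.987 (edgeR). Without the second C. sativus library the differences were −0.21 and −0.28. Without the first, which leaves the high library alone, they were −3.35 (adjusted p = 0.019) and −5.11 (adjusted p = 0.0281), both past the threshold (edgeR). miR393a v1, with the same seed, had 80.6 and 153 CPM, 120 and 525 CPM, and 94.2 and 1215 CPM in the same order, and lay at −1.96 and −2.05, or at −0.56 and −0.82 without the second C. sativus library. The opposite arm, miR393a-3p, was not high in that library: 282 and 456 CPM in the allotetraploid, 556 and 248 CPM in C. hystrix, and 764 and 40.5 CPM in C. sativus, at −0.13.

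The same library was high for miR166i-p3, read at 1536 and 1684 CPM in the allotetraploid, 1881 and 2340 CPM in C. hystrix, and 895 and 14424 CPM in C. sativus. Its differences of −1.32 and −1.60 turned to 0.23 and 0.10 without that library. miR169g, of a family that targets NF-YA factors, had 13.4 and 0 CPM in the allotetraploid, 0 and 183 CPM in C. hystrix, and 145 and 5.06 CPM in C. sativus, where each parent had 1 high and 1 low library. Its difference of −3.61 (SE 1.87) turned to 0.24 without the second C. hystrix library. PC-142-5p and PC-40-3p, both unread in the second C. hystrix library, lay at −1.37 and −1.23 on the log scale and at 1.76 and 2.26 without the first C. hystrix library. On the high side, miR1511-3p v2 had 130 and 62.6 CPM in the allotetraploid, 7.09 and 64.8 CPM in C. hystrix, and 50.5 and 0 CPM in C. sativus, at 1.65 (SE 1.33), with the lower allotetraploid library just under the higher C. hystrix library. miR168-p3, from the arm opposite to the miR168 that targets ARGONAUTE1, was lower in the allotetraploid (103 and 383 CPM) than in C. sativus (1700 and 759 CPM) and overlapped with C. hystrix (326 and 248 CPM), at −1.29 and −1.64.

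**Figure D3:**
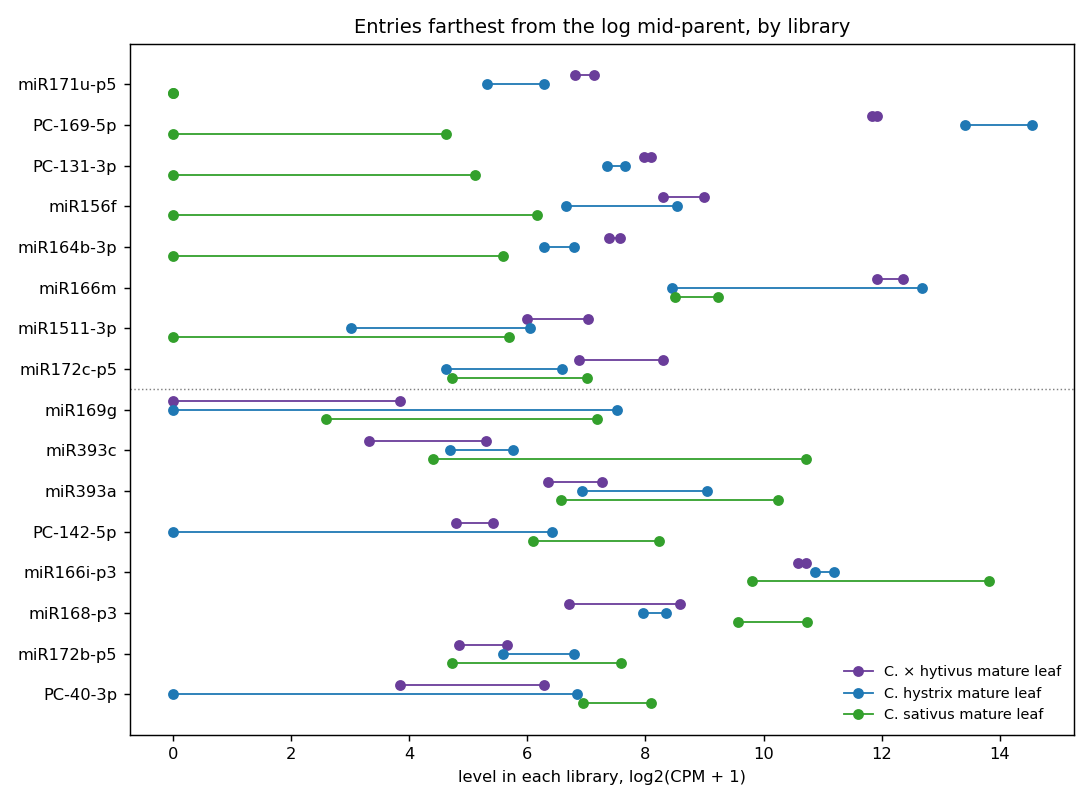
Points give the level of each library as log2(CPM + 1), joined within a group, for the 8 entries highest (above the dotted line) and the 8 lowest against the log mid-parent among entries of at least 50 CPM. Allotetraploid pairs lie close together for PC-169-5p, PC-131-3p and miR164b-3p, and the C. sativus pair is wide for miR393c (20.2 and 1680 CPM) and miR166i-p3 (895 and 14424 CPM).

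miR166 and miR159 together took 68.7% to 81.7% of the reads in 5 of the 6 libraries and 32.8% in the second C. sativus library, and with all libraries neither family passed the test. miR166 holds down HD-ZIP III factors and so sets the upper and lower side of a leaf. miR166a v1 was read at 357916 and 503973 CPM in the allotetraploid, 640711 and 622145 CPM in C. hystrix, and 151078 and 83361 CPM in C. sativus. The 3 groups did not overlap, and the allotetraploid lay between its parents. The difference was 0.66 (SE 0.46, 95% interval −0.31 to 1.63) from the log and 0.20 (interval −0.84 to 1.25) from the linear mid-parent. The linear difference was −0.06 without the second allotetraploid library. miR166a v2, a variant with another first base and the same seed, had the same order at a lower level: 21502 and 19469 CPM in the allotetraploid, 31302 and 34553 CPM in C. hystrix, and 4790 and 2126 CPM in C. sativus, at 0.94 and 0.17.

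Other miR166 products did not keep that order. miR166g gave 21789 and 45175 CPM in the allotetraploid, 45711 and 45865 CPM in C. hystrix, and 16446 and 25422 CPM in C. sativus. The second allotetraploid library lay just under C. hystrix, and the first lay far lower, between the 2 C. sativus libraries. The difference was 0.11 from the log and 0.0053 from the linear mid-parent. Its sign changed with the library left out (−0.51 to 0.55 on the log scale) and with the scaling (−0.14 on the log scale with DESeq2's size factors). miR166m had 3870 and 5239 CPM in the allotetraploid, but 347 and 6596 CPM in C. hystrix, and 599 and 359 CPM in C. sativus, a split C. hystrix pair, and lay at 1.82 (SE 1.01). The miR166 sum was 340871 and 636435 CPM in the allotetraploid, 683724 and 535893 CPM in C. hystrix, and 189450 and 190876 CPM in C. sativus. Because sums and entries were scaled apart, miR166a v1 exceeded this sum in the first allotetraploid and the second C. hystrix library. The sum differed by 0.52 (SE 0.70) from the log mid-parent, and by −0.07 when libraries were scaled to the conserved families.

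miR159 restrains GAMYB-like factors, and miR319, a relative of it, restrains TCP factors that slow leaf growth. miR159a v1 was read at 217627 and 481624 CPM in the allotetraploid, 220220 and 305028 CPM in C. hystrix, and 368651 and 26940 CPM in C. sativus. The groups overlapped, and C. sativus held both the lowest and the second highest library. The difference was 0.62 (SE 0.70) from the log and 0.60 from the linear mid-parent, turned to −0.07 and −0.08 without the second allotetraploid library, and was past the threshold on the log scale only without the first C. sativus library (2.06, adjusted p = 0.0184, edgeR). The miR159 sum behaved alike, at 0.71 on both scales, −0.28 without the second allotetraploid library, and 1.49 (adjusted p = 0.023) without the first C. sativus library. miR319 had a sum of 6338 and 6479 CPM in the allotetraploid, 2983 and 4346 CPM in C. hystrix, and 6608 and 270 CPM in C. sativus. The allotetraploid lay above C. hystrix and just under the first C. sativus library. Its difference of 0.85 on both scales was 0.38 and 0.32 without the second C. sativus library, and on the log scale 2.47 (adjusted p = 0.00417) without the first.

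Over the leaf growth families (miR159, miR319, miR396, miR164, miR166 and miR171), 30 of 49 tested entries (61.2%, against 56.2% of all) lay above the log mid-parent (median 0.26) and 28 of 49 (57.1%, against 51%) above the linear (median 0.17), with 0 past the threshold. These shares were near the background. All 6 family sums lay above both mid-parents, against 51.2% and 45.3% of all 86 family-level features. Without the second allotetraploid library 23 of 49 entries and 3 of 6 sums were above the log mid-parent (51.9% and 36% of all), and with scaling to the conserved families 21 of 49 and 3 of 6 (36.5% and 33.7% of all). miR396, which limits growth-regulating factors, had a sum of 5804 and 17183 CPM in the allotetraploid, 10906 and 9991 CPM in C. hystrix, and 12533 and 3193 CPM in C. sativus. The allotetraploid held both the highest library and one of the lower ones, and 0.34 turned to −0.64 without its second library and to −0.17 with scaling to the conserved families.

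**Figure D4:**
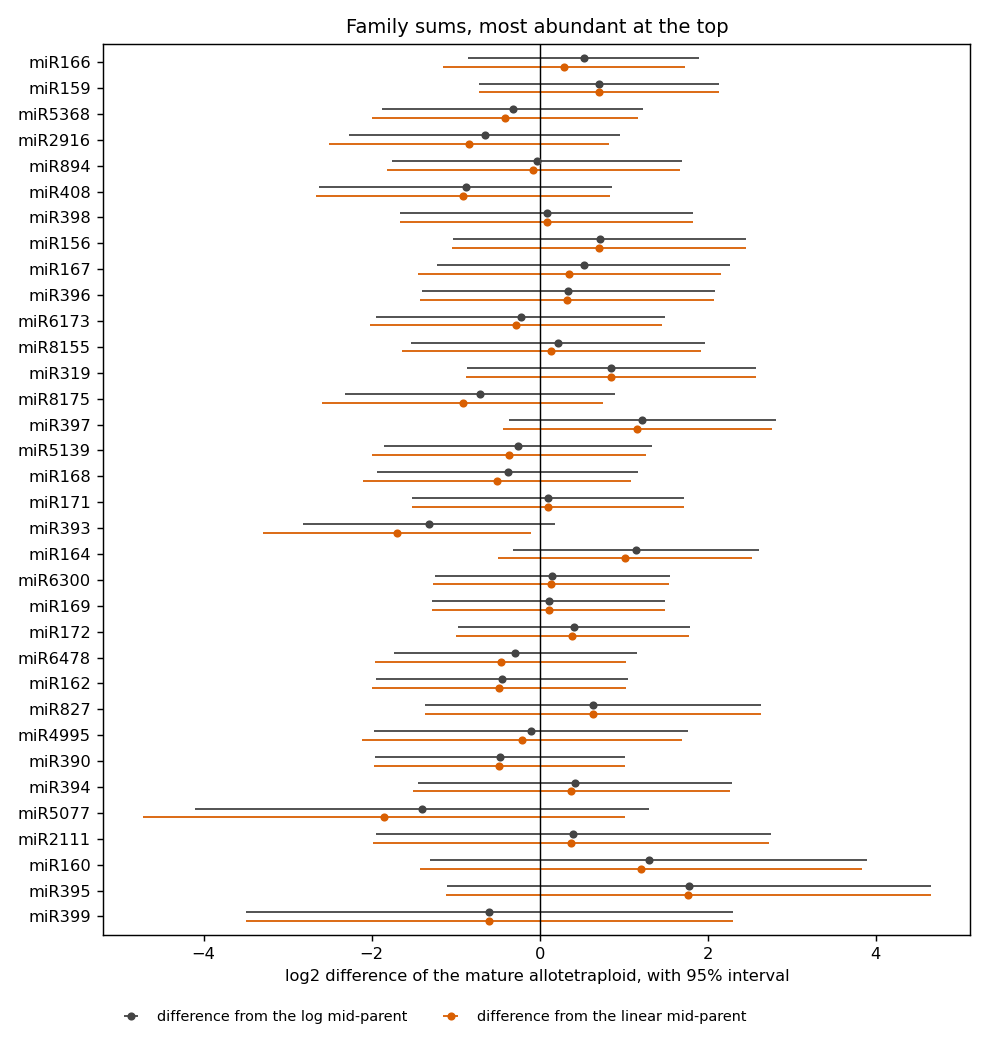
Each row is a family sum, ordered by level. Dark points give the log2 difference from the log mid-parent and orange points that from the linear mid-parent, with 95% intervals as bars. Every dark bar crosses 0, and 1 orange bar, that of miR393, does not (−1.69).

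Copper families differed widely between the libraries of 1 group. miR397, miR398 and miR408 limit laccases, copper superoxide dismutases and plantacyanins when copper is short. In the 10 tested entries of this list together, the libraries gave 64328 and 10526 CPM in the allotetraploid, 65410 and 6726 CPM in C. hystrix, and 49795 and 25968 CPM in C. sativus. In each of the 3 groups the first library was the higher. Of the 10 entries 4 lay above the log mid-parent (40%, against 56.2% of all; median −0.44) and 3 above the linear (30%, against 51%; median −0.69), with 0 past the threshold.

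Family sums of the copper list went both ways. miR397 had 7636 and 908 CPM in the allotetraploid, 2414 and 318 CPM in C. hystrix, and 3423 and 1476 CPM in C. sativus, a difference of 1.22 (SE 0.80) that turned to −1.01 without the first allotetraploid library. miR408 had 17554 and 5407 CPM, 31852 and 2458 CPM, and 32924 and 19354 CPM in the same order, a difference of −0.88 (SE 0.88) that turned to 0.52 without the first C. hystrix library. miR398 had 27801 and 5247 CPM, 27205 and 2272 CPM, and 16268 and 16680 CPM, a difference of 0.08 (SE 0.89) with a range of −1.57 to 1.43 as single libraries were left out. For miR397 and miR398 the 3 groups overlapped. For miR408 the allotetraploid overlapped with C. hystrix and lay below C. sativus. The most abundant entry of miR408, miR408 v1, was read at 17360 and 4258 CPM in the allotetraploid, 31791 and 2930 CPM in C. hystrix, and 28529 and 8138 CPM in C. sativus, at −0.72 (SE 0.97) and, without the first C. hystrix library, 0.38. That of miR398, miR398a v1, was read at 32243 and 4390 CPM, 27692 and 2865 CPM, and 14372 and 8401 CPM in the same order, at 0.47 (SE 0.94) and, without the first allotetraploid library, −1.59. In both entries the first library of every group was the higher.

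The remaining lists had 0 entries past the threshold, and their shares above the log mid-parent are to be read against the 56.2% of all entries. Of the auxin families (miR160, miR167, miR390 and miR393), 7 of 18 entries lay above it (38.9%, median −0.17). Of the nutrient families 6 of 10 did (60%, median 0.49). For the small RNA machinery families miR162 and miR168 it was 2 of 5 (40%, median −0.21), and miR403 had no tested entry. The GRAS family miR171 had 6 of 12 above it (50%, median 0.12), and the conserved families together 66 of 112 (58.9%, median 0.19). The resistance gene families had 5 entries listed and 0 tested.

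Lists for tissues that may be caught in a leaf sample were summed as well. In the phloem sap families (miR395, miR398, miR399 and miR2111), summed levels were 34030 and 4866 CPM in the allotetraploid, 29102 and 3130 CPM in C. hystrix, and 15503 and 11565 CPM in C. sativus, and 4 of 7 entries lay above the log mid-parent (57.1%, against 56.2% of all; median 0.31). In the shoot apex families (miR164, miR394, miR171 and miR390) they were 3986 and 3746 CPM, 4227 and 2977 CPM, and 3908 and 648 CPM, and 12 of 19 lay above (63.2%, median 0.31). Of the phloem sap families, miR399 had no tested entry. Both lists share families with the lists above, and the part of such tissues in those results was not tested.

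Of the 11 fragment-like family sums 7 were highest in the second C. sativus library among the 6. The other 4 were not: miR8155 (139 CPM, against 2697 to 12078 CPM in the other 5) and miR5139 (241 CPM, against 933 to 6430 CPM) were lowest there, miR6478 was highest in the first C. sativus library and miR6300 in the first allotetraploid library. miR5368 had 49352 and 112201 CPM in the allotetraploid, 77687 and 64784 CPM in C. hystrix, and 79251 and 207475 CPM in C. sativus, a difference of −0.32 (SE 0.79). miR2916 had 39626 and 28955 CPM, 26852 and 37657 CPM, and 21319 and 159811 CPM in the same order, a difference of −0.66 (SE 0.82) that turned to 0.39 without the second C. sativus library. In both the highest value was that library's. For miR5368 the first C. sativus library and both C. hystrix libraries lay between the 2 allotetraploid libraries. For miR2916 the first C. sativus library was the lowest of the 6, and the allotetraploid overlapped with C. hystrix. The 4 fragment-like entries among the 10 most abundant lay as follows against the log mid-parent: miR5368-p5 v2 at −0.27 (SE 0.60), miR5368-p3 v1 at −0.13 (SE 0.89), miR2916-p3 at −0.47 (SE 0.75) and miR894 v4 at 0.14 (SE 0.73). The sign of each changed when single libraries were left out. Of the 11 sums 9 lay under the log mid-parent (median −0.26), where 42 of all 86 family-level features (48.8%) did, and 4 did without the second C. sativus library. As single entries, 22 of 41 lay above it (53.7%, against 56.2% of all; median 0.14).

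Where the parents differed at least 4-fold, the 2 mid-parents part most. In 16 entries with C. hystrix at least 4-fold higher, the allotetraploid lay between the parents in 10, above both in 6 and below both in 0. It was above the log mid-parent in 15 and above the linear one in 12, with medians of 1.26 and 0.39. For PC-169-5p, PC-159-3p and PC-132-5p it lay above the log and below the linear mid-parent. PC-159-3p, for one, had 62.7 and 111 CPM in the allotetraploid, 152 and 248 CPM in C. hystrix, and 33.7 and 0 CPM in C. sativus, at 0.54 and −0.32.

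In 13 entries with C. sativus at least 4-fold higher, the allotetraploid lay between the parents in 6, above both in 2 and below both in 5. It was above either mid-parent in 3, with medians of −1.16 on the log and −1.64 on the linear scale. In the 179 entries within 4-fold, 99 lay above the log and 91 above the linear mid-parent (medians 0.11 and 0.01). By distance on the log scale the allotetraploid was nearer to C. hystrix in 15 of 16, 9 of 13 and 112 of 179 entries. On the linear scale it was nearer to C. hystrix in 12, 10 and 116. These counts use the parental values on both sides of the comparison and carry no test, and the C. sativus mean in them rests in part on the library that stood apart.

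Of the entries higher in C. hystrix, miR156i-p3 and miR172g-p3 also moved with the choice of mid-parent. miR156i-p3 had 35.8 and 271 CPM in the allotetraploid, 255 and 141 CPM in C. hystrix, and 6.73 and 20.2 CPM in C. sativus. It lay at 1.58 on the log and 0.54 on the linear scale, and at −0.52 and −1.55 without the second allotetraploid library. miR172g-p3 had 219 and 122 CPM, 252 and 365 CPM, and 43.8 and 10.1 CPM, and lay at 0.87 on the log scale and 0.02 on the linear, where the sign changed with the setting. Over all 208 entries, 11 (5.29%) lay above the log and below the linear mid-parent.

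Sequences read in 1 parent only were mostly near the limit of detection. In both libraries of C. hystrix and in neither of C. sativus there were 19 sequences with at least 1 read, and 9 of them (47.4%) were read in the allotetraploid, 4 in both libraries and 5 in 1. In both libraries of C. sativus and in neither of C. hystrix there were 20, and 12 of them (60%) were read in the allotetraploid, 1 in both libraries and 11 in 1. Of 177 sequences read in all 4 parental libraries, 151 (85.3%) were read in both allotetraploid libraries. With at least 3 reads in both libraries of a parent, 5 sequences of C. hystrix and 6 of C. sativus were left, and 20% and 33.3% of them reached that count in the allotetraploid.

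At 10 reads miR171u-p5 alone was left for C. hystrix, and 0 sequences were left for C. sativus. A count of 0 allowed up to 3 counts, by counting error only. Without TMM scaling these were 14.5 and 7.93 CPM in the 2 allotetraploid libraries. In the second C. sativus library they were 30.2 CPM. These limits are not on the scale of the other CPM values, which rest on TMM-scaled totals. The scaled total of the second C. sativus library was 197587 against 99196 unscaled, so its limit is lower on that scale. That of the second allotetraploid library, 287482 against 378234, makes its limit higher. miR482, of a family that targets resistance genes, was read 5 and 3 times in C. hystrix and 0 times in the other 4 libraries. These are few reads, and whether miR482 is absent from the allotetraploid was not tested. PC-25-3p was read 4 and 3 times in C. sativus, 5 and 3 times in the allotetraploid and 0 times in C. hystrix. One variant, miR156a v3, was read 3 and 4 times in the allotetraploid and 0 times in all 4 parental libraries.

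Length, first base and miRBase status were not used in choosing or testing entries. Against 56.2% of all entries, 48 of the 88 tested entries of 21 nt lay above the log mid-parent (54.5%, median 0.10). So did 13 of the 24 of 22 nt (54.2%, median 0.23) and 10 of the 18 of 24 nt (55.6%, median 0.14). Shares were higher at 18 nt (16 of 23, 69.6%, median 0.34) and 20 nt (18 of 26, 69.2%, median 0.51). They were lower at 19 nt (7 of 17, 41.2%, median −0.13) and 23 nt (5 of 12, 41.7%, median −0.31). Entries beginning with T (U in RNA), the base that ARGONAUTE1 prefers, lay above in 57 of 96 (59.4%, median 0.22), and those beginning with A in 17 of 39 (43.6%, median −0.21). The share was 22 of 33 for a first G (66.7%, median 0.29) and 21 of 40 for a first C (52.5%, median 0.10). Whether lengths or first bases differ in this was not tested. Of entries known from miRBase, the database of published microRNAs, 20 of 33 lay above (60.6%, median 0.40), and of those the authors list as new 43 of 86 (50%, median 0.01).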

How the data were processed

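The 6 mature leaf libraries were compared, with the 2 young leaf libraries in the shared spread, and groups and replicate numbers came from the sample titles. Per the labels, TRIzol was used for extraction and an Illumina HiSeq for sequencing. The submitters' processing notes name Bowtie 0.12.8. No source used here gives the genome build, its species or the counting rule. If reads were placed on 1 parental genome, sequences carried only by the other parent could be undercounted.

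Raw reads, a heading of the deposited table, were taken as estimated counts (80.5% were whole within 1e-06) and rounded. The normalized reads deposited by the authors, taken as a signal, equal the raw reads times 1 constant per library, chosen in a way that no source used here gives. The 843 lines hold 733 sequences, and the 101 sequences on several lines, which had equal values, were counted once. Such a value may be a share of the reads, so levels of different entries are not on one scale.

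edgeR 4.0.16 (R 4.3.3) was used with filterByExpr, TMM and robust quasi-likelihood fits over all 8 libraries in 4 groups (4 residual degrees of freedom), after tests on simulated data. The tested entries held no less than 99.47% of any library's reads. The linear mid-parent was tested by constraining the same fit to the arithmetic mean of the parental means. P-values were two-sided, with Benjamini-Hochberg adjustment across 208 entries or 86 family-level features and a threshold of 0.05. Floors of 3 counts cover counting error only.

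Named entries were the 8 highest and 8 lowest differences from the log mid-parent among entries of at least 50 CPM with both allotetraploid libraries on 1 side, the 10 most abundant, and the 6 with the widest gap between both mid-parents. The comparison, the lists and this rule were chosen with earlier results of these data known. Alternatives were other scalings and filters, DESeq2 1.42.0, limma 3.58.1, the 6 mature libraries alone, a replicate block and leaving out each library. Scaling by the authors' constants, and family sums scaled as the entries, were added after seeing the data, as were list counts under other scalings and left-out libraries. Columns of values that matched no sample numbered 0.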

Additional observations from a re-analysis of the deposited data

How the results depend on the processing

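Against both mid-parents the count of entries called stayed at 0 under every scaling, filter and tool tried (DESeq2 on the log scale only), and leaving out single libraries gave 0 to 20 on the log scale and 0 to 1 on the linear scale, the higher values without the first C. sativus library. Family-level calls were 1 (PC-169-5p) on the log scale in DESeq2 and 1 (PC-169-5p) with the replicate number as a block, and 0 to 6 on the log and 0 to 1 on the linear scale as libraries were left out. With 1 library left in a group, that library is assumed to vary like the others. The replicate block left entries at 0 on both scales (7 and 2 at an unadjusted p under 0.05). Replicate numbers were not taken to pair the libraries, since no label ties them. The correlation of the replicate differences over 208 entries was −0.002 between allotetraploid and C. hystrix, −0.034 between allotetraploid and C. sativus, −0.046 between the parents, and 0.328, 0.023 and −0.014 of the young leaf pair with C. hystrix, allotetraploid and C. sativus. In the summed copper entries the first library was the higher in all 3 mature groups. With scaling to the conserved families 42 entries and 14 family-level features lay above both parents. As libraries were left out, entries below both numbered 35 to 81 and family-level features 14 to 38. Of sequences read in 1 parent only, the share found in the allotetraploid went from 47.4% to 20% at 3 reads and 100% at 10 reads for C. hystrix (n = 19, 5 and 1), and from 60% to 33.3% at 3 reads for C. sativus.

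Of single values given, 317 of 360 on the log scale and 320 of 360 on the linear scale kept their sign and side of the threshold as libraries were left out, and 491 of 517 and 437 of 472 did so under the other settings. Those that changed sign, for which the cause was not tested, follow as the log2 difference from the log or the linear mid-parent, with "family" for a sum. With DESeq2's size factors in edgeR, the differences were miR166g −0.14 log with −0.18 linear, miR894 v4 −0.14 log with −0.16 linear and miR172g-p3 −0.071 linear. With plain library totals, the differences were miR166g −0.31 log with −0.31 linear, miR894 v4 −0.051 log with −0.15 linear and family miR171 −0.074 log with −0.092 linear. With scaling to the conserved families, the differences were miR166g −0.72 log with −0.78 linear, miR894 v4 −0.39 log with −0.67 linear, family miR166 −0.073 log with −0.097 linear, family miR396 −0.17 log with −0.18 linear, family miR171 −0.23 log with −0.29 linear, family miR172 −0.037 log with −0.051 linear and family miR398 −0.17 linear. With fragment-like families removed, the differences were miR166g −0.20 log with −0.23 linear. With no filter on low counts, the differences were miR166g −0.14 log with −0.23 linear, miR894 v4 −0.052 log with −0.055 linear, miR166a v1 −0.0040 linear, miR166a v2 −0.013 linear, miR172g-p3 −0.14 linear and family miR894 0.14 log with 0.14 linear. With the replicate number as a block, the differences were miR5368-p3 v1 0.056 log, miR166g −0.046 linear, miR156i-p3 −0.035 linear, miR172g-p3 −0.083 linear and family miR398 −0.13 log with −0.21 linear. In DESeq2, the differences were miR166g −0.14 log and miR894 v4 −0.14 log. In limma's voom, the differences were miR5368-p3 v1 0.29 log with 0.042 linear, miR166g −0.059 linear, miR172g-p3 −0.0066 linear and family miR398 −0.010 linear. With the authors' constants, the differences were miR166g −0.083 log with −0.12 linear, miR894 v4 −0.10 log with −0.12 linear, miR172g-p3 −0.031 linear and family miR171 −0.014 log with −0.015 linear. With a stricter filter, the differences were family miR5368 0.29 log with 0.21 linear and family miR894 0.17 log with 0.15 linear. With family sums scaled as the entries, the differences were family miR894 0.13 log with 0.13 linear. Without the first C. sativus library PC-169-5p, PC-131-3p, miR156f, miR164b-3p, miR393c and miR159a v1 passed the threshold on the log scale, as did the sums of miR159, miR319 and miR393, and on the linear scale miR393c and the miR393 sum. Without the second the miR393c differences shrank to −0.21 and −0.28. Ranges over left-out libraries, where these cross 0, were on the log scale miR169g (−7.55 to 0.24), PC-142-5p (−1.84 to 1.76), miR166i-p3 (−1.78 to 0.23), PC-40-3p (−2.96 to 2.26), miR159a v1 (−0.067 to 2.06), miR5368-p5 v2 (−0.69 to 0.061), miR2916-p3 (−0.97 to 0.51), miR166g (−0.51 to 0.55), miR894 v4 (−0.71 to 0.66), miR408 v1 (−2.07 to 0.38), miR398a v1 (−1.59 to 1.45), miR5368-p3 v1 (−0.85 to 1.15), miR156i-p3 (−0.52 to 2.39), family miR159 (−0.28 to 1.49), family miR5368 (−1.03 to 0.15), family miR2916 (−1.24 to 0.39), family miR894 (−0.59 to 0.37), family miR408 (−1.97 to 0.52), family miR398 (−1.57 to 1.43), family miR396 (−0.64 to 0.92), family miR397 (−1.01 to 2.27), family miR171 (−0.24 to 0.48) and family miR172 (−0.067 to 0.76). On the linear scale they were miR166i-p3 (−2.36 to 0.099), miR166a v1 (−0.065 to 0.43), miR159a v1 (−0.081 to 1.27), miR5368-p5 v2 (−0.73 to 0.024), miR2916-p3 (−1.07 to 0.38), miR166g (−0.61 to 0.44), miR894 v4 (−0.71 to 0.66), miR398a v1 (−1.60 to 1.27), miR5368-p3 v1 (−0.92 to 0.28), miR156i-p3 (−1.55 to 1.35), miR172g-p3 (−0.46 to 0.39), PC-159-3p (−0.79 to 0.036), family miR166 (−0.23 to 0.67), family miR159 (−0.28 to 1.28), family miR5368 (−1.23 to 0.10), family miR2916 (−1.83 to 0.36), family miR894 (−0.63 to 0.33), family miR398 (−1.57 to 0.83), family miR167 (−0.055 to 0.67), family miR396 (−0.66 to 0.91), family miR397 (−1.07 to 2), family miR171 (−0.27 to 0.44) and family miR172 (−0.086 to 0.75).

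Depth limits low entries most. Without TMM scaling, 3 reads stand for 30.2 CPM in the second C. sativus library and 7.93 CPM in the second allotetraploid library. These values are not on the scale of the other CPM values. The TMM-scaled totals of these libraries, 197587 and 287482, bring the 2 limits closer together. With 2 libraries a group, a difference of 1 log2 unit is about the SE of a median entry (1.07).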
